A study of Mus musculus with 4 samples.

Results

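Fibroblast growth factors (FGFs), their receptors and the genes that dampen the ERK kinase pathway were followed in mouse embryonic stem (ES) cells with and without knock-down of FBL (fibrillarin, the nucleolar methyltransferase of ribosomal RNA). The 37 genes were chosen by symbol: 17 secreted ligands, 4 intracellular FGFs, 5 receptors and 11 ERK feedback and target genes. A probe was found by RefSeq accession for 35 of them, and 24 were measured well enough to be tested, out of 19338 genes tested in all. Of these 19338, 12815 carried a gene name. Each other accession was counted as a gene of its own, so a gene may be counted more than once. Fgf4 and Dusp5 had no probe of their RefSeq accession and were not analysed here. Gene expression was read on 1-colour Agilent arrays in 2 control and 2 FBL-knock down samples, 1 array per sample. All 4 samples came from Tc-inducible FBL-knock down ES cells on gelatin with leukaemia inhibitory factor (LIF) for 2 days. Controls received Tc (1000 ng/mL) and the FBL-knock down samples were cultured without it, so both groups carry the inducible system and differ also in Tc itself. The strain, the clone and the promoter that drives the system are not given in the sources used here, nor whether the samples of a group were separate cultures. The p-values therefore speak for the spread among these 4 samples alone, and that spread may be technical.

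FGF ligands bind tyrosine kinase receptors together with heparan sulfate on the cell surface, and the receptors signal through the RAS, RAF, MEK and ERK cascade. ERK activity switches on its own brakes, namely the Sprouty and Spred proteins and the dual-specificity phosphatases, together with transcription factors such as Etv4, Etv5 and Egr1, so the messenger RNA of these genes is widely read as a sign of pathway activity. In mouse ES cells, autocrine FGF signalling, mainly through Fgf4, drives cells out of the naive state, and LIF opposes that exit.

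Of the 24 tested genes, the ligand Fgf17 fell and the receptors Fgfr4 and Fgfr2 rose, and none of the 10 tested feedback genes passed the test. The ligand Fgf21 passed too, downwards, but it was tested only because its controls were above background, so nothing is read from its call. A gene is said to rise or fall where the limma p-value, adjusted over all genes tested, was below 0.05. Over all genes 6.40% passed, 3.82% upwards and 2.58% downwards. Of the 24 genes, 22 were well above background on all 4 arrays and 3 of these passed, whereas Fgf21 and Fgf14 entered through their controls. The changes are given as knock-down minus control on the log2 scale, and n is 2 per group throughout. Fgf17 fell 2.97-fold, Fgfr4 rose 2.23-fold and Fgfr2 rose 2.03-fold. For Fgf21 the nominal bound was a factor of 1.47, its knock-down signal being not well above background. Across the 24 genes the median change was −0.25, against −0.06 over all genes tested. Of the 24, 18 lay below 0, as did 10876 of the 19338 genes tested. The knock-down arrays lay apart from both control arrays for 15 of the 24, which 51.1% of all genes did too. In 11 of the 24 they lay below the controls, a pattern shown by 30.6% of all genes (5926 of the 9888 with groups apart). Fgf21 and Fgf14 are among these 11.

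**Figure D1:**
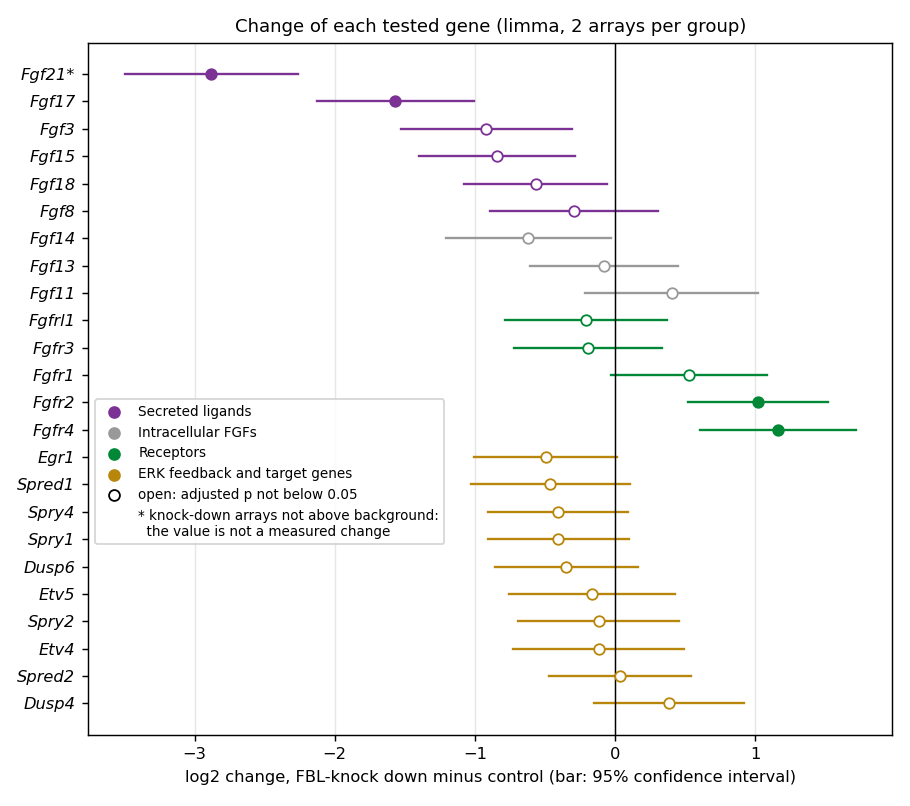
The log2 change (x axis, FBL-knock down minus control) of each of the 24 tested genes (y axis) with its 95% confidence interval from limma, coloured by role and filled where the adjusted p was below 0.05. Fgf21 and Fgf17 lie furthest to the left, Fgfr2 and Fgfr4 furthest to the right, and the 10 feedback genes lie between −0.50 and 0.38.

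The promoter table of RefSeq (assembly GRCm38.p6) held 3 of the 4 genes that passed. These sequences are shown because the genes passed, although nothing is read from the call of Fgf21. Each is the stretch of 250 bases before the annotated start, 5′ to 3′ on the gene's strand. The capitals mark matches, on either strand, to 5 motifs: TTGCATCA, an element bound by ATF and C/EBP family dimers; TGACGTCA, the cAMP response element; CCGGAAGT, bound by ETS factors; GGGCGG, the GC box; and TATAAA, the TATA box.
Fgf21, chr7:45615491-45615740, minus strand: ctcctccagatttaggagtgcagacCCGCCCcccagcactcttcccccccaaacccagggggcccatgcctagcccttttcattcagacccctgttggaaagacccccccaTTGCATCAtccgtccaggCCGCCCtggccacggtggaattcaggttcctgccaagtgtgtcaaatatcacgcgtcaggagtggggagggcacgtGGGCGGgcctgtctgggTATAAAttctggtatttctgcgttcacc
Fgfr4, chr13:55152568-55152817, plus strand: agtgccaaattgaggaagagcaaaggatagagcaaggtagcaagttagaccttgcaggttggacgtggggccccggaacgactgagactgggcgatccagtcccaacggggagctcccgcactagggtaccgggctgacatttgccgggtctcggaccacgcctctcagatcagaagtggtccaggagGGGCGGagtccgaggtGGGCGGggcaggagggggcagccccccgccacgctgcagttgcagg
Fgfr2, chr7:130266809-130267058, minus strand: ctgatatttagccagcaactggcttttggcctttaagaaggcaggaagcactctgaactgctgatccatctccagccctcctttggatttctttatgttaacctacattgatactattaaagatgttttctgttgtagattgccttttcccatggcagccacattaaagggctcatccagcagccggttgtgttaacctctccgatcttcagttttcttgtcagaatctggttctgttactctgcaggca

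The Fgf21 window held TTGCATCA with its first base 139 bases before the start, TATAAA 28 bases before the start, and 3 GC boxes. Fgf21 is known as a target of ATF4, the transcription factor of the amino acid stress response. The table holds 34 windows of 26 genes of the set outside the chromosome not used here. TTGCATCA occurred in 0.791% of the 32851 promoter windows of this length and in 1 of the 34, that of Fgf21. TATAAA occurred in 12.4% of all windows and likewise in 1 of the 34. The Fgfr4 window held 2 GC boxes, 62 and 46 bases before the start, and the Fgfr2 window held none of the 5 motifs. A GC box occurred in 32.7% of all windows and in 22 of the 34. The ETS motif occurred in 2.88% of all windows and in 1 of the 34, and the cAMP response element in 1.55% and in 0. These matches describe the letters only, the windows may not be the starts used in ES cells, and binding was not measured.

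On the arrays, Fbl itself had levels of 8.63 and 8.12 in controls 1 and 2 and of 5.98 and 5.94 in knock-down samples 1 and 2, a change of −2.42 ± 0.25 (SE, limma adjusted p = 5.01e-04). A level is the log2 signal of a probe over that array's own 75th percentile, and levels of different probes are not compared. Per array, 59.9% to 64.5% of spots were well above background, and precision is limited by there being 4 arrays. All 15 markers of ES cells, Dppa5a, Zfp42 and Pou5f1 among them, were well above background on all 4 arrays, with 4 above and 11 below 0. Of these Tfcp2l1 fell (−0.96, adjusted p = 0.0401), a call that ended with quantile normalization, with the 75th percentile over bright probes, with no filter, with the slide block and without either knock-down array. The summed linear level of the 9 primitive endoderm markers was 2.70 and 3.06 in the controls, against 1.66 and 1.71 in the knock-down samples. Most of that sum is Lama1, which fell (−1.01), as did Sox7 (−2.16), while 3 of the 8 tested were higher, among them Sox17 (0.79) and Col4a1 (0.23) with groups apart. The Lama1 call ended without either knock-down array, with the slide block and with no filter, and that of Sox7 under normexp and with no filter. The sum of the 8 trophectoderm markers was 20.5 and 25.9 against 30.3 and 33.4, with 4 higher and 4 lower. Most of that sum is Tfap2c (0.82). Tfap2c, Cdx2 (0.83), Gata3 (0.76) and Hand1 (0.70) lay higher with groups apart and did not pass. Krt8 (−0.32) and Eomes (−0.37) lay lower with groups apart and did not pass either. Elf5 passed downwards, but it entered through its controls and was not well above background in FBL-knock down 2. The sum of the 8 fibroblast markers was 4.59 and 7.17 against 3.60 and 3.93, most of it Thy1 (−0.76), and the other 3 tested were higher, with a list median of 0.21. Col3a1, Dcn and Fap, the primitive endoderm marker Pdgfra and the neural marker Neurog2 were above background on no array. The sums for the 6 primitive streak and mesoderm markers were 0.45 and 0.55 against 0.46 and 0.47, and those for the 8 neural ectoderm markers 0.95 and 0.97 against 1.07 and 1.10. Markers outside the 3 brightest of a list are named after their values were seen. The part of these cell type markers in the results below was not tested, and in bulk samples fewer cells of a type and less RNA per cell cannot be told apart. The FBL-knock down 2 array was on a slide of its own, and the other 3 arrays shared a slide.

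Among the secreted ligands, the 5 measured in both groups had changes below 0, and Fgf17 passed. Fgf21, the remaining ligand tested, had its direction set by the filter. The median of the 6 was −0.88, or −0.71 with Fgf21 at its bound. Fgf17, a ligand of the FGF8 subfamily that acts in the midbrain and hindbrain organiser, had levels of 0.62 and 0.11 in the controls and of −1.26 and −1.15 in the knock-down samples. Both knock-down arrays were lower than both controls by more than the distance within either group, with a change of −1.57 ± 0.25 (SE, limma adjusted p = 0.00492). Fgf17 kept its call when any 1 array was left out, with changes of −1.82 to −1.31 and adjusted p of 0.010 to 0.0265.

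Fgf21, an endocrine hormone of fasting and metabolic stress, had levels of −5.23 and −5.38 in the controls and of −8.54 and −7.83 in the knock-down samples at the tested probe. It entered the test through the controls alone, where both arrays were just above background, so it had to differ in order to be tested. The fitted change was −2.88 ± 0.28 (limma adjusted p = 3.67e-04) and the nominal bound was a fall by a factor of 1.47. That bound is not strict, since the Fgf22 probe, at −5.28 on FBL-knock down 2, was not above background there. With normexp background correction, which adds an offset of 50 to the signal, the change of Fgf21 was −0.08 (adjusted p = 0.928). A further Fgf21 probe lay at −6.18 and −5.95 in the controls and at −8.44 and −3.35 in the knock-down samples, above background only in FBL-knock down 2, and gave a change of 0.17. The probes of Fgf21 thus disagreed in direction, and FBL-knock down 2 alone was high at the untested one.

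Fgf15, the endocrine ligand of the gut-liver axis that is also made in the embryonic brain, had levels of −0.30 and −0.78 in the controls and of −1.44 and −1.33 in the knock-down samples. Its groups did not overlap, but the change of −0.84 ± 0.25 did not pass (adjusted p = 0.0808). Without control 1 it was −0.60 (adjusted p = 0.0470) and without control 2 it was −1.09 (0.0217), fits whose spread comes only from the 2 knock-down arrays. Fgf3, a ligand of the FGF7 subfamily needed for inner ear development, lay at −3.001 and −3.69 in the controls and at −4.20 and −4.33 in the knock-down samples. Its change was −0.92 ± 0.27 (adjusted p = 0.0829), again with groups apart. The Fgf3 change was −1.26 without control 2 (adjusted p = 0.0169) and −0.58 without control 1 (0.0522). Under normexp on the median signal it turned to 0.20 (adjusted p = 0.762).

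Fgf18 and Fgf8 belong to the same subfamily as Fgf17. Fgf18 had levels of 2.11 and 1.90 in the controls and of 1.505 and 1.38 in the knock-down samples, with a change of −0.57 ± 0.23 (adjusted p = 0.199). Fgf8, a ligand of gastrulation and of brain and limb patterning, had −1.64 and −2.32 in the controls against −2.30 and −2.24 in the knock-down samples, a change of −0.29 ± 0.27 (adjusted p = 0.619). The knock-down arrays of Fgf18 lay below both controls, whereas those of Fgf8 lay within the range of the controls, and control 1 was the array that stood high for Fgf8. The 95% confidence interval of the change ran from −1.08 to −0.06 for Fgf18 and from −0.90 to 0.31 for Fgf8. The differences between Fgf17 and these subfamily members were not tested.

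The remaining 10 ligands with a probe, Fgf1, Fgf2, Fgf6, Fgf7, Fgf9, Fgf10, Fgf16, Fgf20, Fgf22 and Fgf23, were not well above background on both arrays of either group and were not tested. They include Fgf2, the ligand used to culture epiblast stem cells, and the mesenchymal ligands Fgf7 and Fgf10. Of these, Fgf1 was above background on 1 array (control 2), Fgf22 on 1 (FBL-knock down 1) and Fgf23 on 1 (control 1), and the other 7 on none. Their levels ranged from −8.42 to −5.28 over all arrays.

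The intracellular FGFs are not secreted and bind voltage-gated sodium channels. None of the 3 tested passed in limma, and 1 of them, Fgf14, had an unadjusted p below 0.05. Fgf14 had levels of −5.29 and −5.64 in the controls and of −5.82 and −6.34 in the knock-down samples, a change of −0.62 ± 0.26 (adjusted p = 0.224). Like Fgf21 it entered through its controls, since FBL-knock down 2 was not above background, and its change under normexp was −0.06. Fgf11 lay at −4.18 and −4.51 against −4.27 and −3.61 (0.40 ± 0.28), with FBL-knock down 2 the high array. Fgf13 lay at −3.65 and −3.91 against −3.74 and −3.98 (−0.08 ± 0.24), with overlapping groups. Fgf12 was above background on no array.

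**Figure D2:**
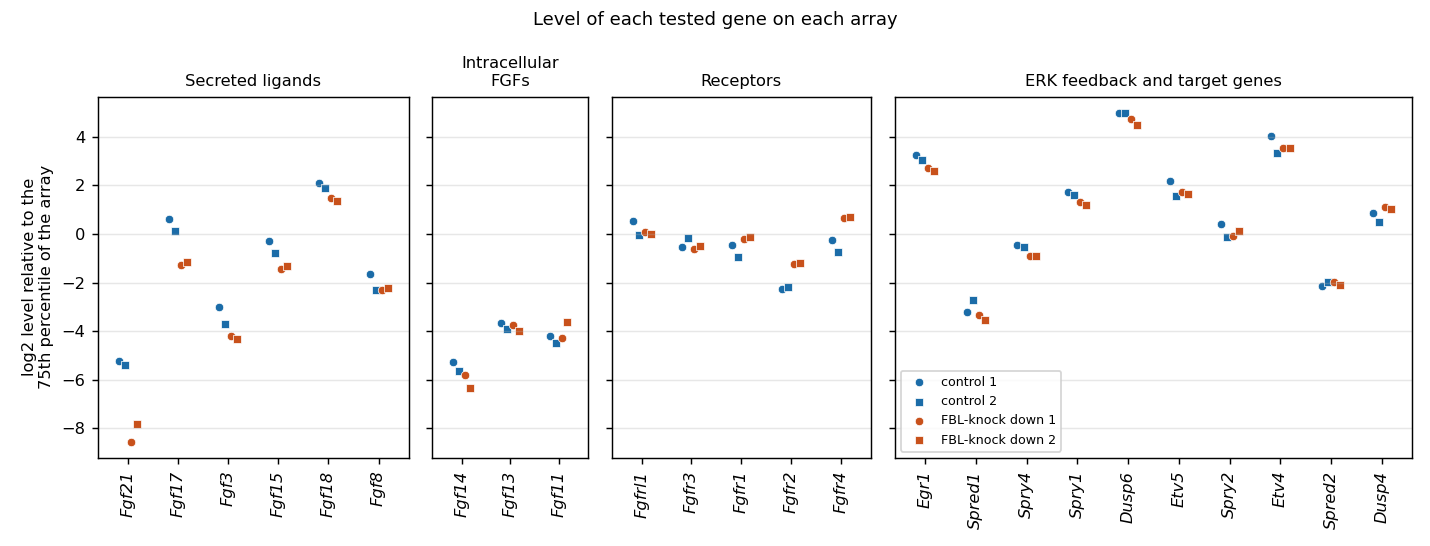
Level of the 24 tested genes on each array (y axis, log2 over each array's 75th percentile), with controls in blue and FBL-knock down in orange, in 4 panels by role. For Fgf17, Fgfr2 and Fgfr4 the gap between the colours is wider than the distance between the 2 arrays of either colour. The same holds for genes that did not pass, among them Fgf15, Fgf18, Spry1, Spry4 and Egr1. For Etv4, Etv5 and Fgfrl1 the knock-down points lie between the 2 controls.

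The receptors split. Fgfr4 and Fgfr2 rose, Fgfr1 was higher without passing, and Fgfr3 and Fgfrl1 had changes close to 0. Fgfr4, the receptor that with Klb answers Fgf15, had levels of −0.23 and −0.73 in the controls and of 0.66 and 0.70 in the knock-down samples, a change of 1.16 ± 0.25 (limma adjusted p = 0.0222). Fgfr2, which exists in an epithelial and a mesenchymal splice form, had −2.28 and −2.20 in the controls against −1.24 and −1.20 in the knock-down samples, a change of 1.02 ± 0.22 (adjusted p = 0.0240). In both genes the knock-down arrays lay above both controls, and the arrays of the knock-down pair lay within 0.05 of each other.

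Both receptor calls ended when either knock-down array was left out, with changes of 1.18 and 1.14 for Fgfr4 (adjusted p = 0.164 without FBL-knock down 1 and 0.252 without FBL-knock down 2) and of 1.04 and 0.9997 for Fgfr2 (0.292 and 0.441). In those fits limma gave every gene the same variance, and the sizes barely moved. Under normexp the change of Fgfr2 was 0.64 (adjusted p = 0.0889).

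Fgfr2 was read by 3 probes above background on all arrays. The others gave changes of 1.23 ± 0.22 (adjusted p = 0.0113 when every probe is tested on its own) and of 0.33 ± 0.24 (0.491), so 2 of the 3 probes passed and all pointed upwards. With the mean over the probes, the change was 0.86 (adjusted p = 0.0511). Which splice forms the probes read is not given in the files.

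Fgfr1, the main FGF receptor of ES cells, had levels of −0.44 and −0.93 in the controls and of −0.21 and −0.10 in the knock-down samples. Its change was 0.53 ± 0.25 (adjusted p = 0.277), with the knock-down arrays above both controls, and its other probes gave 0.58 and 0.40. Without control 1 the change of Fgfr1 was 0.77 (adjusted p = 0.0317), and without control 2 it was 0.28 (0.206). Fgfr3 had −0.52 and −0.18 in the controls against −0.59 and −0.49 in the knock-down samples, a change of −0.19 ± 0.24, and a further probe above background gave −0.23. Fgfrl1, a receptor-like protein without a kinase domain, had 0.54 and −0.04 against 0.09 and 0.00, a change of −0.21 ± 0.26, with the knock-down arrays within the range of the controls. The 95% interval was −0.72 to 0.33 for Fgfr3 and −0.78 to 0.37 for Fgfrl1.

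**Figure D3:**
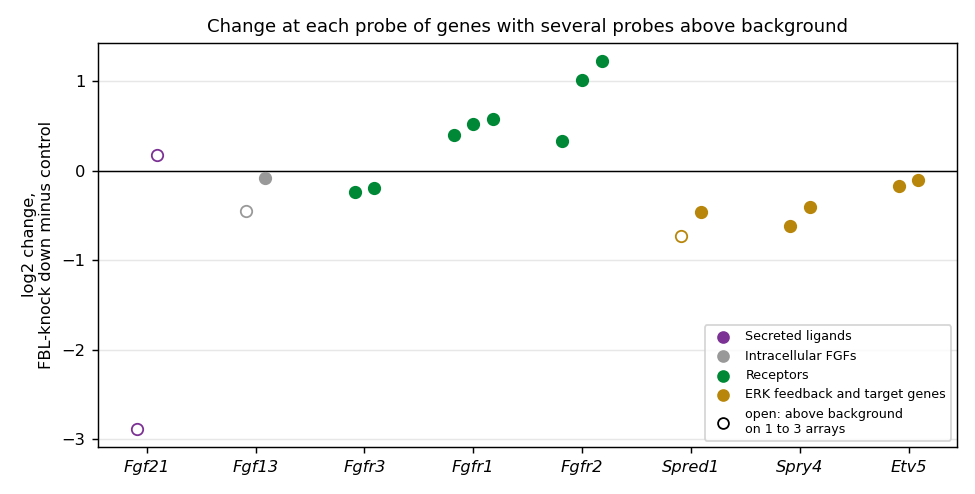
The log2 change (y axis, FBL-knock down minus control) at each probe of the 8 tested genes with more than 1 probe above background on some array, with 1 point per probe, filled where the probe was above background on all 4 arrays. The 3 probes of Fgfr1 lie between 0.40 and 0.58 and those of Fgfr2 between 0.33 and 1.23, whereas the probes of Fgf21 lie at −2.88 and 0.17.

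The ERK feedback and target genes showed no call. None of the 10 tested passed in limma, and none had an unadjusted p below 0.05, which 20.1% of all genes had. Their changes ran from −0.50 to 0.38 with a median of −0.26. In all, 8 of the 10 lay below 0, as did 10876 of the 19338 genes tested. In 5 of the 10 the knock-down arrays were lower than both controls, a pattern shown by 30.6% of all genes. The 95% confidence intervals of the 10 genes together spanned −1.03 to 0.92.

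Of the phosphatases, Dusp6, which removes phosphate from ERK in the cytoplasm, had levels of 4.96 and 4.98 in the controls and of 4.74 and 4.50 in the knock-down samples, a change of −0.35 ± 0.23 (adjusted p = 0.449). Dusp4, its nuclear counterpart, had 0.87 and 0.48 against 1.10 and 1.02, a change of 0.38 ± 0.24 (adjusted p = 0.427). The phosphatases therefore lay on opposite sides of 0, each with groups apart, and neither passed. Without control 1 the change of Dusp4 was 0.58 (adjusted p = 0.0472), and without control 2 it was 0.19 (0.351).

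The Sprouty proteins inhibit receptor tyrosine kinase signalling upstream of ERK. Spry1 had levels of 1.74 and 1.60 in the controls and of 1.33 and 1.19 in the knock-down samples (−0.40 ± 0.23). Spry4 had −0.44 and −0.53 against −0.90 and −0.89 (−0.41 ± 0.22), and −0.62 at its other probe. Spry1 and Spry4 thus lay lower on both knock-down arrays by similar amounts, with adjusted p of 0.366 and 0.351. Spry2 had 0.41 and −0.13 against −0.08 and 0.12 (−0.12 ± 0.26), with its knock-down arrays inside the range of the controls.

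The Spred proteins also inhibit signalling upstream of ERK. Spred1 had levels of −3.22 and −2.72 in the controls and of −3.33 and −3.52 in the knock-down samples (−0.46 ± 0.25, adjusted p = 0.353), and −0.73 at its other probe. Spred2 had −2.14 and −1.97 against −1.96 and −2.08 (0.03 ± 0.23), with overlapping groups. Spred1 lay lower on both knock-down arrays, narrowly so against control 1, and passed only without control 1 (−0.71, adjusted p = 0.0419) among the alternatives run. Without control 2 its change was −0.21 (adjusted p = 0.353).

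The ETS factors Etv4 and Etv5 are transcribed in response to FGF. Etv4 had levels of 4.03 and 3.32 in the controls and of 3.55 and 3.56 in the knock-down samples (−0.12 ± 0.27), and Etv5 had 2.18 and 1.55 against 1.75 and 1.65 (−0.17 ± 0.27), with −0.10 at its other probe. For both, the controls lay further apart than the groups did, and without control 1 the changes turned to 0.24 and 0.15. Egr1, an immediate early transcription factor of ERK and of serum, had 3.27 and 3.04 in the controls against 2.70 and 2.62 in the knock-down samples. Its change was −0.50 ± 0.23 (adjusted p = 0.264), the lowest of the 10, with both knock-down arrays below both controls.

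The median changes of ligands, receptors and feedback genes were −0.88, 0.53 and −0.26, against −0.06 over all genes tested. The order of the 3 medians was the same with quantile normalization. Under normexp they were −0.35, 0.48 and −0.32, so ligands and feedback genes were hardly separated, and 1 of the 6 ligands lay above 0. The deposited value table and the 75th percentile over bright probes shift nearly all changes alike, so they could not test the order. The classes hold 6, 5 and 10 tested genes, the ligand median includes Fgf21, and the difference between classes was not tested.

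Other genes of the pathway were read from 3 lists. In the list of FGF co-receptors and heparan sulfate genes, 1 of 19 tested rose and 1 fell, against 3.82% and 2.58% of all genes. The median was −0.06. Sdc4, a heparan sulfate proteoglycan of focal adhesions, had levels of 0.53 and 0.17 in the controls and of 3.22 and 3.20 in the knock-down samples, and rose 7.25-fold (2.86 ± 0.24, adjusted p = 2.35e-04). Sdc2, a further syndecan, had −1.06 and −1.18 against −1.99 and −2.05, and fell 1.87-fold (−0.90 ± 0.22, adjusted p = 0.0429). Both syndecans had groups well apart, in opposite directions. The call of Sdc2 ended under normexp (−0.55, adjusted p = 0.176), with the mean over its probes (−0.49, 0.273), without FBL-knock down 1 (0.433) and without FBL-knock down 2 (0.675), and Sdc4 kept its call in each of these.

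None of the 25 tested adaptors and kinases of the ERK cascade passed in limma, and 5 had an unadjusted p below 0.05, a share close to the 20.1% of all genes. Their median was −0.14, with 8 above and 17 below 0. Ptpn11, the phosphatase SHP2 that links receptors to RAS, had levels of 4.67 and 4.77 in the controls and of 4.43 and 4.38 in the knock-down samples (−0.31 ± 0.22, adjusted p = 0.497). Both knock-down arrays lay below both controls. Genes of this list passed in 6 of the 17 alternatives, up to 7 of them without control 1, where 5 rose and 2 fell.

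In the list of other feedback and immediate early genes, 3 of 24 tested rose and 0 fell, against 3.82% and 2.58% of all genes. The median was −0.02, with 12 above and 12 below 0, and groups lay apart for 9 and 8 of these. An unadjusted limma p below 0.05 was found for 11 of the 24, against 20.1% of all genes. The absence of falls depended on the setting: with trend, 4 genes of the list rose and 3 fell. Fosl1, the AP-1 subunit FRA-1, had levels of −3.28 and −3.71 in the controls and of −1.02 and −0.92 in the knock-down samples, and rose 5.77-fold (2.53 ± 0.24, adjusted p = 3.70e-04). Jun, its AP-1 partner, had −3.72 and −3.88 against −2.16 and −2.36, and rose 2.91-fold (1.54 ± 0.23, adjusted p = 0.00328). Dusp2, a nuclear phosphatase of ERK, had 0.56 and 0.17 against 1.81 and 1.83, and rose 2.74-fold (1.46 ± 0.24, adjusted p = 0.00568). All 3 had knock-down arrays above both controls. Under normexp the changes of Fosl1 and Jun were 1.62 and 0.85, and the call of Dusp2 ended without FBL-knock down 2 (1.45, adjusted p = 0.05003).

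**Figure D4:**
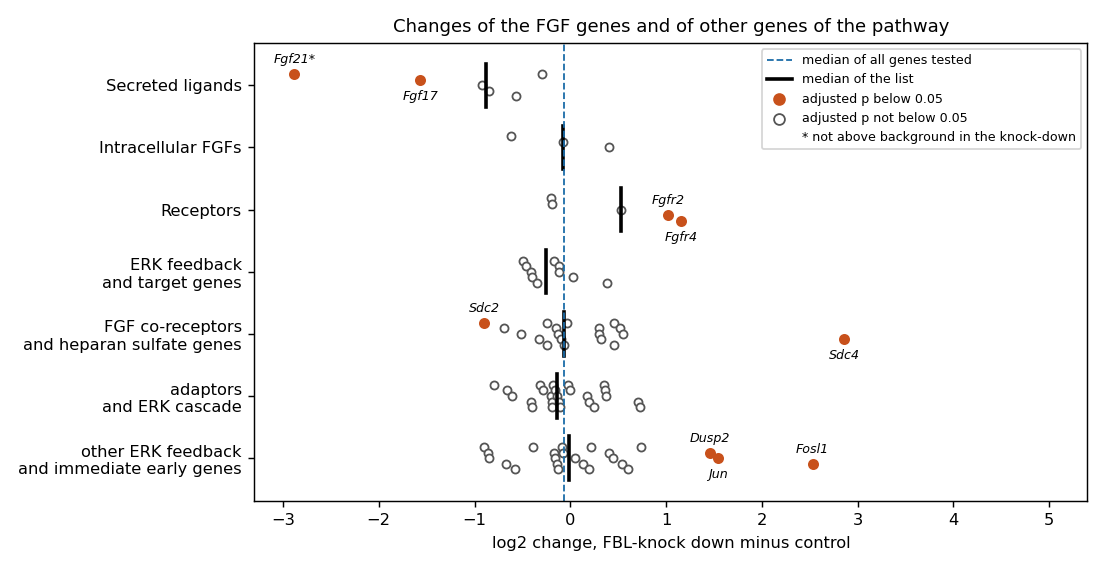
The log2 change (x axis, FBL-knock down minus control) of each tested gene in the 4 classes and the 3 further lists of the pathway (y axis), with black bars at each list's median, a dashed line at the median of all genes tested and filled points where the adjusted p was below 0.05. The filled points are Fgf21, Fgf17 and Sdc2 on the left and Fgfr2, Fgfr4, Sdc4, Dusp2, Jun and Fosl1 on the right. The 10 feedback genes lie between −0.50 and 0.38, with a median of −0.26.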

How the data were processed

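Agilent Feature Extraction (version 10.7.3.1, per the submitters' processing notes) read the spots. Per the file headers, the deposited intensity of a spot is its processed signal, after background subtraction and detrending. The authors' deposited value table holds log2 values that lay within 0.01 of the levels used here for 99.8% of probes on each array, and no source used here names the software that made it. Outlier-flagged spots were left out, and 41124 probes were kept. Intensities were taken to log2, minus each array's 75th percentile. Probes above background on both arrays of a group (25078) were tested, with 1 probe per gene, the one with the highest mean. Names came from probe accessions through the RefSeq table of GRCm38.p6 (24350 probes named). An accession without a single gene name there was counted as a gene of its own. Groups were assigned by sample title and compared with limma 3.58.1 in R 4.3.3 (lmFit, eBayes, two-sided), with Benjamini-Hochberg adjustment over 19338 genes. The nominal bound of a fold change sets the brighter mean against the higher of the dim probe's signal and the lowest signal above background on each dim array. It is not strict, since a brighter probe can also fall short of being above background. The fit was tested on simulated data without slide effects. The planted changes were larger than those of Fgf17, Fgfr4 and Fgfr2, so that test does not speak for changes of their size. The files lack the mean spot signal, so normexp used the median signal. The genes named are Fbl, all members, and the passing (or the 2 highest) genes of each further list, 1 of which is not reported here. Members and lists were chosen with earlier results of these data known. In all, 17 alternatives were run, 15 of them planned.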

Additional observations from a re-analysis of the deposited data

How the results depend on the processing

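Without the filter for dim probes, limma passed 0 genes (2967 had an unadjusted p below 0.05), 0 members and 0 other genes of the pathway; with no filter and a trend in the prior, chosen after seeing the data, 2473 genes, 4 members and 13 other pathway genes passed. The main counts were 1238, 4 and 5. With trend and robust 2150 genes and 14 pathway genes passed, with trend 13 pathway genes, and with probes above background on all 4 arrays 9. Under normexp, also chosen after seeing the data in this form, 2 members passed (Fgf17 and Fgfr4). With the slide as a block, which equals leaving out FBL-knock down 2, 575 genes, 2 members (Fgf17 and Fgf21) and 3 pathway genes passed. Leaving out 1 array gave 575 to 4180 genes, 2 to 8 members and 3 to 21 pathway genes, the most without control 1.

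Fgf17 passed in 16 of 17 alternatives, Fgfr4 in 13 of 17 and Fgfr2 in 11 of 17. Fgf21 passed in 13 of 16, but those fits keep the filter through which it entered, so nothing is read from that count. Fgf21 turned to 0.17 with no filter, with and without trend, where its untested probe stood for it, and Fgf3 to 0.20 under normexp. With the slide block Fgf13 turned to 0.045. Leaving out 1 array, changes that turned ran from −0.63 to 0.045 for Fgf8, −0.21 to 0.055 for Fgf13, −0.50 to 0.084 for Fgfrl1, −0.38 to 0.15 for Spry2, −0.051 to 0.11 for Spred2, −0.47 to 0.24 for Etv4 and −0.49 to 0.15 for Etv5. The causes were not tested.

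Same-numbered samples did not deviate together over genes (correlation of their deviations 0.0029). The arrays are few and the knock-down arrays were on different slides, so this value cannot tell whether the numbers mark pairs. With the replicate block 1746 genes, 5 members (Fgf3 added, adjusted p = 0.0351) and 6 other pathway genes passed. In that fit, as under normexp and with the slide block, limma gave every gene the same variance, so a gene's own spread played no part. The controls differed more than the knock-down samples did (SD over genes 0.51 against 0.32). The number of arrays and signals near background limit what can be told of Fgf21, Fgf3 and Fgf14.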
